A study of Mus musculus and Homo sapiens with 10 samples.

Results

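In NIH3T3, an immortalized line of mouse fibroblasts, 9892 of 30239 RNA polymerase II (Pol II) peaks overlapped no peak of an active histone mark (32.7%, 95% interval 32.2 to 33.2). These unmarked Pol II peaks were chosen by position overlap, as the peaks that shared not 1 bp with the H3K4me3, H3K9ac or H4 hyperacetylation lists of the same cells. The presence or absence of those 3 marks is therefore given as a description only. The data are lists of peaks called from chromatin immunoprecipitation followed by sequencing (ChIP-seq), with 1 list for each of 7 targets in exponentially growing NIH3T3 cells, none of them treated: Pol II, RNA polymerase I (Pol I), the upstream binding factor UBF, and the histone marks H3K4me3, H3K9ac, H3K9me3 and H4 hyperacetylation. The Pol II antibody was clone 4H8 against the C-terminal repeat of the polymerase, with serine 5 phosphorylation named in its label, and Pol I was precipitated with rabbit antibodies to POLR1A, its largest subunit. The series also holds lists from human mammary epithelial lines, which were not used here.

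Pol II transcribes protein-coding genes. It is recruited at promoters, where serine 5 of its C-terminal repeat is phosphorylated, and then travels through the gene body. H3K4me3 and H3K9ac are marks of active promoters, and acetylated H4 marks open chromatin at promoters and enhancers, while H3K9me3 is a mark of silent chromatin. UBF is a transcription factor of Pol I and is best known on the ribosomal RNA genes, which Pol I transcribes in the nucleolus.

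Each list is 1 sample, and the files hold positions only, with no score, height or read count. The depth behind a peak is unknown. With n = 1 and no replicate error, lists or classes of peaks could not be tested against each other. Shares carry 95% intervals, computed exactly from the binomial distribution (Clopper-Pearson), and intervals of medians come from the ranks of the values. They cover counting error only. Neighbouring peaks of one transcribed stretch are not independent, so the intervals are too narrow for such peaks. In a list from a population of cells, a peak in a few cells and a weak peak in all cells cannot be told apart. No mm9 annotation was used here, so peaks are identified by position on mm9, as deposited, and not by gene.

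The unmarked peaks are set beside the 2 other classes of Pol II peak. There were 1973 peaks with acetylation and no H3K4me3 (6.52%), and 18374 peaks with H3K4me3 (60.8%), of which 17258 had all 3 marks. H3K4me3 was looked up first, so the split between these 2 classes follows from that order. Of the 11865 Pol II peaks without H3K4me3, 832 met H3K9ac and 1740 met H4 hyperacetylation, with 599 meeting both.

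At the edge of the rule, the 3 unmarked peaks nearest to a mark lay on chromosome 4 from 138844603 to 138845146, on chromosome 10 from 80882812 to 80883578 and on chromosome 7 from 3614286 to 3614943. Their gaps were 1 and 1 bp to H3K9ac and 2 bp to H3K4me3. The 3 marked peaks with the least overlap lay on chromosome 15 from 101927574 to 101928019, on chromosome 19 from 7348529 to 7349677 and on chromosome 9 from 108963512 to 108964228, with 1, 1 and 2 bp covered. Few peaks sat at this edge. Of the unmarked peaks, 143 (1.45%) lay within 100 bp of an active mark peak and 1376 (13.9%) within 1000 bp, whereas 3340 (33.8%) lay over 10000 bp from every one. Among the marked Pol II peaks, 77 (0.378%) were covered over less than 100 bp.

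Unmarked Pol II peaks were narrow. Their median width was 523 bp (interval 520 to 527; quartiles 458 and 679), against 588 bp (572 to 602) for peaks with acetylation only and 840 bp (831 to 849) for peaks with H3K4me3. They ranged from 221 to 6889 bp and covered 6.25 Mb of the 26.8 Mb of the Pol II list. A width of 1000 bp or more was reached by 866 unmarked peaks (8.75%), by 21.4% of the peaks with acetylation only and by 38.1% of those with H3K4me3. Put the other way, 54.9% (53.8 to 56.1) of the narrowest of 4 width groups of all Pol II peaks, 190 to 499 bp, was unmarked, and 10.0% (9.34 to 10.7) of the widest group, 1050 bp and above. A wide peak meets any list more easily, so the shares below are also given within width groups.

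The 5 widest unmarked peaks show that the class is not made of narrow peaks alone. The widest lay on chromosome 17 from 56153569 to 56160458, was 6889 bp wide and stood 2539 bp from the nearest H3K4me3 peak. The next lay on chromosome 15 from 77589590 to 77595313 (5723 bp wide, 17034 bp from H3K4me3), on chromosome 8 from 125002328 to 125007900 (5572 bp wide, 817 bp from H3K4me3) and then on chromosome 11 from 120667631 to 120672961 (5330 bp wide, 5061 bp from H3K4me3). None of these 4 met H3K9me3, UBF or Pol I. The fifth, on chromosome 12 from 114008298 to 114013102, was 4804 bp wide and lay partly in an H3K9me3 peak of 13738 bp.

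Most unmarked Pol II peaks lay within 20 kb of an H3K4me3 peak. The median gap was 9069 bp (8830 to 9307), with quartiles of 3765 and 19811 bp, over the 9883 unmarked peaks on chromosomes or contigs that hold an H3K4me3 peak. A gap above 0 is fixed by the rule, and the peaks with acetylation and no H3K4me3, for which it is fixed as well, had a median gap of 3508 bp (3150 to 3916). A smaller share of the unmarked peaks stood under 5 kb, and a larger share between 5 and 100 kb. Under 1 kb from H3K4me3 stood 628 unmarked peaks (6.35%, 5.88 to 6.85), against 26.2% (24.3 to 28.2) of the peaks with acetylation only. Between 5 and 20 kb stood 4290 unmarked peaks (43.4%, 42.4 to 44.4), against 26.4% (24.4 to 28.4).

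Farther out, 2222 unmarked peaks (22.5%, 21.7 to 23.3) lay between 20 and 100 kb from H3K4me3, against 12.8% (11.3 to 14.3) of the peaks with acetylation only. Over 100 kb the order turned, with 221 unmarked peaks (2.24%, 1.95 to 2.55) against 3.82% (3.01 to 4.76). The nearest H3K9ac peak was at a median of 8348 bp, the nearest H4 hyperacetylation peak at 6618 bp and the nearest peak of any active mark at 5793 bp. The nearest H3K9me3 peak was farther, at a median of 18188 bp, and the nearest UBF and Pol I peaks stood at medians of 116408 and 253098 bp. For peaks with acetylation only, the medians to H3K9me3, UBF and Pol I were 8306, 111234 and 192830 bp. For UBF the intervals of the 2 classes overlap (112018 to 120542 unmarked, 103585 to 122841 acetylated). Such medians rise as a list gets shorter, and the UBF and Pol I lists are the shortest, with 3704 and 1409 peaks.

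**Figure D1:**
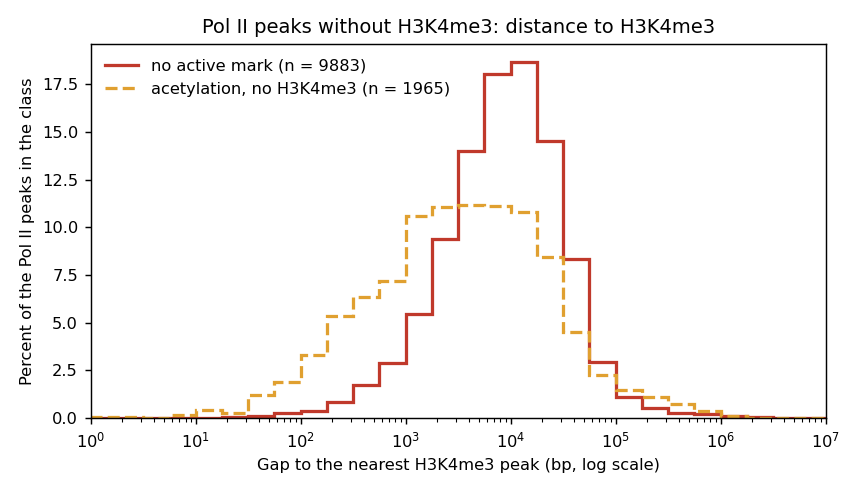
Percent of Pol II peaks in each interval of the gap to the nearest H3K4me3 peak (bp, log scale), for Pol II peaks without any active mark (solid red line) and for Pol II peaks with acetylation and no H3K4me3 (dashed orange line). The unmarked peaks gather around their median of 9069 bp, and the acetylated ones reach further towards short gaps, with a median of 3508 bp.

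Unmarked Pol II peaks came in strings along the chromosomes. Another unmarked peak lay within 5 kb of 6166 of them (62.3%, 61.4 to 63.3), against 37.2% (35.1 to 39.4) of peaks with acetylation only and 45.1% (44.4 to 45.9) of peaks with H3K4me3, each measured to its own class. The H3K4me3 class is the largest, with 18374 peaks, and by number alone its peaks would stand closer together. The acetylated class is the smallest, with 1973 peaks, and by number alone its peaks would stand farther apart. Its lower share is therefore not read as a difference in clustering. The median gap to the next peak of the class was 7500 bp (6986 to 8229) for unmarked peaks and 25430 bp (24431 to 26379) for peaks with H3K4me3. Along the ordered Pol II list, of which 32.7% is unmarked, the next peak after an unmarked one was again unmarked in 5767 of 9883 cases (58.4%). The next peak was unmarked in 35.2% of cases after acetylation only, and in 3426 of 18314 (18.7%) after H3K4me3. Peaks with H3K4me3, 60.8% of the list, were followed by their own class in 76.3% of cases. Peaks with acetylation only, 6.52% of the list, were followed by their own class in 21.5%.

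Joined at gaps of at most 5 kb, the unmarked peaks formed 5470 chains, of which 3726 were single peaks. Chains of 5 or more numbered 356 and held 2572 peaks. Chains of 10 or more numbered 50 and held 679 peaks (6.86%). Peaks in long chains were wider and closer. Joining at gaps of at most 5 kb favours short gaps in long chains, so the closer spacing can follow in part from the construction. Single peaks had a median width of 489 bp (487 to 493) and 3.25% reached 1000 bp. In chains of 10 or more the median was 661 bp (627 to 689), 21.4% (18.3 to 24.6) reached 1000 bp, and the median gap between neighbours was 667 bp (606 to 738). Chains of 2 to 4 and of 5 to 9 peaks stood between, with median widths of 537 and 588 bp and median gaps of 1082 and 813 bp.

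The 5 chains with the most unmarked peaks spanned 35.8 to 48.7 kb. The longest by count ran on chromosome 5 from 125964760 to 126008155 and held 25 unmarked peaks of 446 to 2037 bp (median 1021 bp), which covered 63.7% of its 43.4 kb. It enclosed 1 H3K4me3, 1 H3K9ac and 3 H4 hyperacetylation peaks, and 28 Pol II peaks in all. It stood 4265 bp after another H3K4me3 peak of 5380 bp, and was followed by none for 60906 bp. On chromosome 8, from 125002328 to 125047880, 23 unmarked peaks of 437 to 5572 bp covered 47.1% of the span with no peak of any active mark or H3K9me3 inside. It began 817 bp from an H3K4me3 peak of 2819 bp, beside the third widest unmarked peak of the list, and the next H3K4me3 peak on the other side was 23723 bp away.

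On chromosome 10, from 82327370 to 82363163, 23 unmarked peaks of 327 to 2778 bp covered 61.3% of the span and began 251 bp from an H3K4me3 peak of 6750 bp. The next H3K4me3 peak on the other side was 8441 bp away. This span also held 2 H4 hyperacetylation peaks, and 26 Pol II peaks in all. On chromosome 15, from 63903036 to 63951690, 20 unmarked peaks of 389 to 2073 bp covered 36.7%, with the nearest H3K4me3 peaks 10263 bp before and 65141 bp after. That span held 2 H4 hyperacetylation peaks, and 21 Pol II peaks in all. On chromosome 11, from 31518317 to 31566350, 20 unmarked peaks of 331 to 1402 bp covered 28.7%. There the span also held 2 H3K4me3, 1 H3K9ac, 4 H4 hyperacetylation and 7 H3K9me3 peaks, and 25 Pol II peaks in all. None of the unmarked peaks in these 5 chains met UBF or Pol I. H3K9me3 was met by 5 on chromosome 5, 3 on chromosome 15 and 5 on chromosome 11, and by none on chromosomes 8 and 10.

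**Figure D2:**
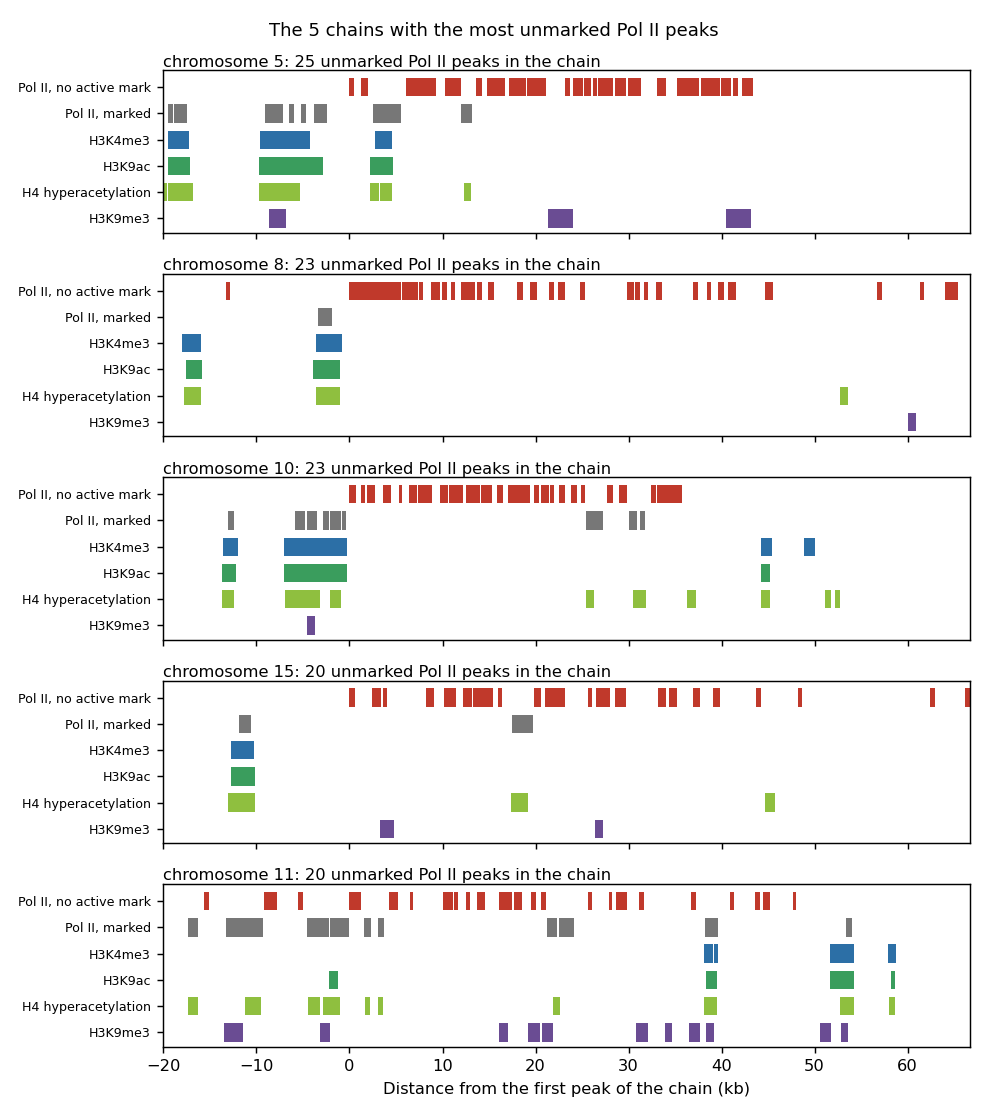
Maps of the 5 chains with the most unmarked Pol II peaks. The x axis is the distance in kb from the first peak of the chain, boxes are deposited peaks drawn to scale within 20 kb of the chain, and rows are, from the top, Pol II without and with an active mark, then H3K4me3, H3K9ac, H4 hyperacetylation and lastly H3K9me3. On chromosomes 8 and 10 a block of H3K4me3 stands at one end of the chain (817 and 251 bp away). On chromosome 8 an unmarked peak outside the chain lies on the other side of the block. On chromosome 10 another H3K4me3 peak stands 8441 bp beyond the other end of the chain.

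The ends of the long chains were set against H3K4me3. Over all unmarked peaks with an H3K4me3 peak on the chromosome or contig, 6.35% lay under 1 kb from it and 25.5% at 1 to 5 kb. A chain has an end on each side, and either can lie near H3K4me3. The counts below are therefore not read as a trait of long chains. Of the 356 chains of 5 or more unmarked peaks, 166 (46.6%, 41.4 to 52.0) had an H3K4me3 peak within 5 kb of one end and not the other, and none inside. Both ends had one in 45 chains (12.6%), 10 chains (2.81%) enclosed one, and 135 (37.9%) had none inside or within 5 kb. In the 50 chains of 10 or more these counts were 27, 8, 3 and 12. The spans ran to 48.7 kb, with medians of 11.3 kb for chains of 5 or more and 22.7 kb for those of 10 or more.

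With all Pol II peaks joined at the same gap, 4233 unmarked peaks (42.8%, 41.8 to 43.8) lay in a run that also held a Pol II peak with H3K4me3. A further 2367 (23.9%) lay in runs of unmarked peaks alone, 577 (5.83%) in runs with acetylated peaks and no H3K4me3, and 2715 (27.4%) had no other Pol II peak within 5 kb. Of 383 runs with 5 or more unmarked peaks, 245 (64.0%, 58.9 to 68.8) held a Pol II peak with H3K4me3. Where such a run held exactly 1 of them and no acetylated peak, it was the first or the last peak of the run in 28 of 36 runs (77.8%, 60.8 to 89.9), whose median size was 7 peaks.

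Unmarked peaks were next assigned to their nearest H3K4me3 peak within 50 kb, which 9260 of them (93.6%) had. They fell to 4251 of the 27982 H3K4me3 peaks, with at most 25 at one of them, and 2359 H3K4me3 peaks had exactly 1. Among the 1073 H3K4me3 peaks with 3 or more, all unmarked peaks stood on the same side in 861 (80.2%, 77.7 to 82.6), and among the 421 with 5 or more in 319 (75.8%, 71.4 to 79.8). The strand of transcription is not in the files, and peaks of one chain share a side.

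The H3K4me3 peaks to which unmarked Pol II peaks were assigned were wide. The median width was 2403 bp (2347 to 2459), and 2810 bp (2588 to 3008) for those with 5 or more, against 1601 bp (1584 to 1616) for H3K4me3 peaks to which none was assigned. An H3K4me3 peak with none assigned can still have unmarked peaks nearby, where another H3K4me3 peak is closer to them. A Pol II peak lay on 74.4% (73.1 to 75.7) of the H3K4me3 peaks with unmarked peaks assigned. The share was 83.6% (79.7 to 87.0) for those with 5 or more, and 49.4% for those with none assigned. UBF was met by 9.29%, 8.31% and 5.90% of these groups, Pol I by 5.43%, 4.04% and 2.87%, and H3K9me3 by 20.7%, 22.8% and 12.7%. Width moves with each of these shares, and its part in them was not tested.

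Crowding was also counted in fixed windows of 100 kb. The 9892 peaks fell in 3487 windows, with a median of 2 per window, and 146 windows with 10 or more held 2046 of them (20.7%). The fullest, on chromosome 17 from 78600001 to 78700000, held 35 unmarked peaks among 42 Pol II peaks, with 3 H3K4me3 peaks. The adjoining windows on chromosome 15 from 63900001 and from 64000001 held 32 and 27, with no H3K4me3 peak in the first and 4 in the second. A window on chromosome 8 from 125000001 held 27 unmarked peaks among 37, and one on chromosome 10 from 119800001 held 27 among 55. That last window was rich in H4 hyperacetylation, with 35 peaks, against 5 to 10 in the other 4. In these 5 windows the median gap of the unmarked peaks to H3K4me3 ran from 8544 to 33270 bp, and none of them met UBF or Pol I. The windows are not separate from the chains above. The chain of 20 unmarked peaks on chromosome 15 lies in the window from 63900001. The chain of 23 on chromosome 8 lies in the window from 125000001.

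Chromosomes differed in their share of unmarked peaks. It was highest on chromosome 15, with 877 of 2008 Pol II peaks (43.7%, 41.5 to 45.9), and lowest on the X chromosome, with 78 of 472 (16.5%, 13.3 to 20.2), and on chromosome 13, with 164 of 844 (19.4%, 16.8 to 22.3). Chromosomes 5 and 11 followed chromosome 15, at 37.5% and 37.2%, and their intervals overlap each other and those of chromosomes 10 and 17. Set against H3K4me3, there were 70.0 unmarked peaks for every 100 H3K4me3 peaks on chromosome 15, 48.8 on chromosome 11, 14.4 on chromosome 13 and 12.6 on the X chromosome. Another unmarked peak lay within 5 kb of 72.1% of those on chromosome 15, 53.8% on the X chromosome and 37.8% on chromosome 13. Among the 20 chromosomes the first of these shares was the highest and the last the lowest. By number alone, unmarked peaks stand closer together where there are more of them per Mb. There were 8.73 per Mb on chromosome 15, 0.477 on the X chromosome and 1.40 on chromosome 13. Density thus did not rank the X chromosome and chromosome 13 as the shares did, and its part in the shares was not tested. On contigs or chromosome Y lay 28 of the 9892 unmarked peaks and 179 of all 30239 Pol II peaks.

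**Figure D3:**
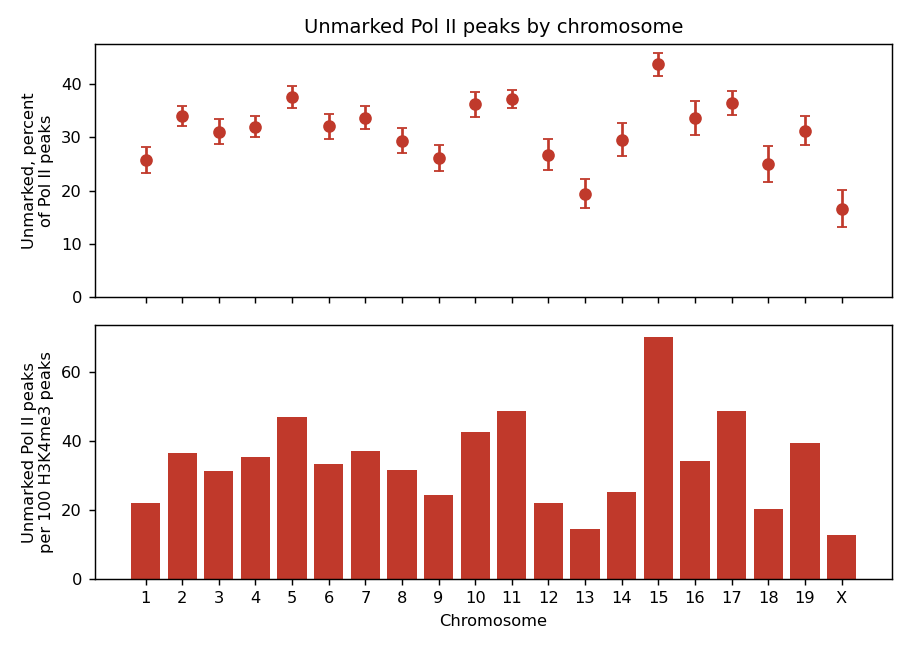
Unmarked Pol II peaks by chromosome: as percent of the chromosome's Pol II peaks with 95% binomial intervals (top), and per 100 H3K4me3 peaks of the chromosome (bars, bottom). Chromosome 15 is highest in both panels, at 43.7% and 70.0, and the X chromosome lowest, at 16.5% and 12.6.

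The silent mark H3K9me3 was met by few unmarked Pol II peaks. It overlapped 598 of them (6.05%, 5.58 to 6.53), against 17.6% (15.9 to 19.3) of peaks with acetylation only and 16.5% (16.0 to 17.1) of peaks with H3K4me3, and 13.2% of all Pol II peaks. The share was lower than in the H3K4me3 class in each of the 4 width groups. In the narrowest width group H3K9me3 was met by 6.10% (5.40 to 6.88) of unmarked peaks and 13.7% (12.4 to 15.0) of peaks with H3K4me3. In the widest group it was met by 7.28% (5.53 to 9.36) and 26.2% (25.2 to 27.3), and in the groups between by 5.62% and 10.0%, and by 6.19% and 11.1%. The peaks with acetylation only stood above the unmarked ones in each group, at 12.9% to 24.3%.

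Within the unmarked class, H3K9me3 varied little with distance up to 100 kb from H3K4me3, at 5.20% to 7.02%, and stood at 16.3% (11.7 to 21.8) beyond, in 36 of 221 peaks. In the acetylated class the share was 7.96% under 1 kb and 74.7% (63.3 to 84.0) beyond 100 kb. Single unmarked peaks met H3K9me3 at 8.13% (7.27 to 9.06), and those in chains of 5 or more at 4.08% (3.35 to 4.92). In 537 of the 598 cases at least 50% of the Pol II peak was covered. The 3 widest were the peak on chromosome 12 given above, a peak of 3699 bp on chromosome 17 from 23955167 to 23958866 and a peak of 3246 bp on chromosome 10 from 80826935 to 80830181. Unmarked peaks with and without H3K9me3 had median widths of 524 bp (509 to 546) and 523 bp (520 to 527), with overlapping intervals. The H3K9me3 peaks that met unmarked Pol II peaks had a median width of 1351 bp, so the coverage of at least 50% can follow in part from their size.

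UBF was met by 86 unmarked Pol II peaks (0.869%, 0.696 to 1.07), against 10.3% (9.86 to 10.7) of peaks with H3K4me3 and 6.6% of all Pol II peaks. The share in peaks with acetylation only was 0.912% (0.542 to 1.44), with an interval that overlaps that of the unmarked peaks. The share with UBF was lower in wide than in narrow unmarked peaks, and higher in wide than in narrow peaks with H3K4me3. In the narrowest width group UBF was met by 66 unmarked peaks (1.59%, 1.23 to 2.01), in the widest by 0 of 756 (interval 0 to 0.487). Among peaks with H3K4me3 the shares in these groups were 2.89% (2.30 to 3.59) and 19.9% (18.9 to 20.9).

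**Figure D4:**
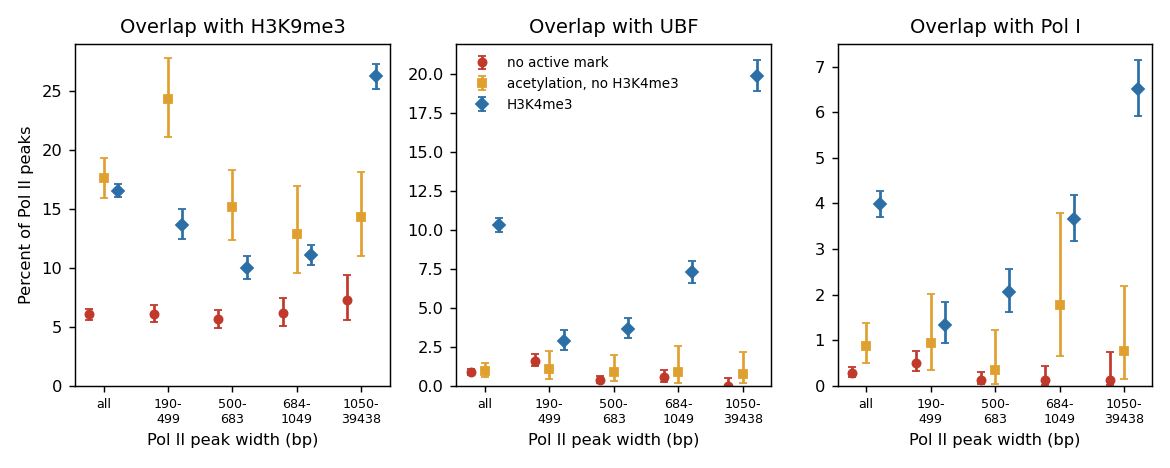
Percent of Pol II peaks that overlap H3K9me3 (left), UBF (middle) and Pol I (right), for all peaks and in 4 groups of Pol II peak width (bp), with 95% binomial intervals. Red circles are peaks without an active mark, orange squares peaks with acetylation and no H3K4me3, and blue diamonds peaks with H3K4me3. The unmarked peaks lie below the H3K4me3 peaks in all panels and width groups, and the widest group differs most, for H3K9me3 at 7.28% against 26.2%.

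The unmarked peaks with UBF mostly stood alone and far from H3K4me3. Their median gap to H3K4me3 was 65063 bp (39594 to 109782), against 8993 bp (8738 to 9215) for unmarked peaks without UBF. No other unmarked peak lay within 5 kb of 80 of the 86, and 35 lay over 100 kb from H3K4me3. The share with UBF was 0 of 628 peaks (interval 0 to 0.586) under 1 kb from H3K4me3, 0.159% at 1 to 5 kb, 0.396% at 5 to 20 kb, 1.35% (0.913 to 1.92) at 20 to 100 kb and 15.8% (11.3 to 21.3) beyond. In the peaks with acetylation only the share with UBF was also highest beyond 100 kb, at 7 of 75 peaks (9.33%, 3.84 to 18.3), with an interval that overlaps that of the unmarked peaks, and stood at 0.388% under 1 kb. The median width of the unmarked peaks in these groups was 528 bp in the nearest and 435 bp in the farthest, and its part in the shares was not tested. At least 50% of the Pol II peak was covered by UBF in 85 of the 86. The UBF peaks that met unmarked Pol II peaks were the wider ones, with medians of 1044 against 442 bp. Such coverage can follow in part from their size.

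The 3 widest unmarked peaks with UBF were of modest size. The first, on chromosome 12 from 107120786 to 107121733, was 947 bp wide under a UBF peak of 1390 bp and an H3K9me3 peak of 1455 bp. The second, on chromosome 9 from 61101929 to 61102695, was 766 bp wide and also met Pol I and H3K9me3. The third lay on chromosome 10 from 19333545 to 19334291 and was 746 bp wide, 20697 bp from H3K4me3. The 3 unmarked peaks farthest from any H3K4me3 peak were on chromosome 14 from 112412150 to 112412558 (5848217 bp away), on chromosome 14 from 115606959 to 115607642 (2880122 bp) and finally on chromosome 1 from 117471402 to 117471713 (2517349 bp). Both peaks of chromosome 14 met UBF, and the second also H3K9me3.

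**Figure D5:**
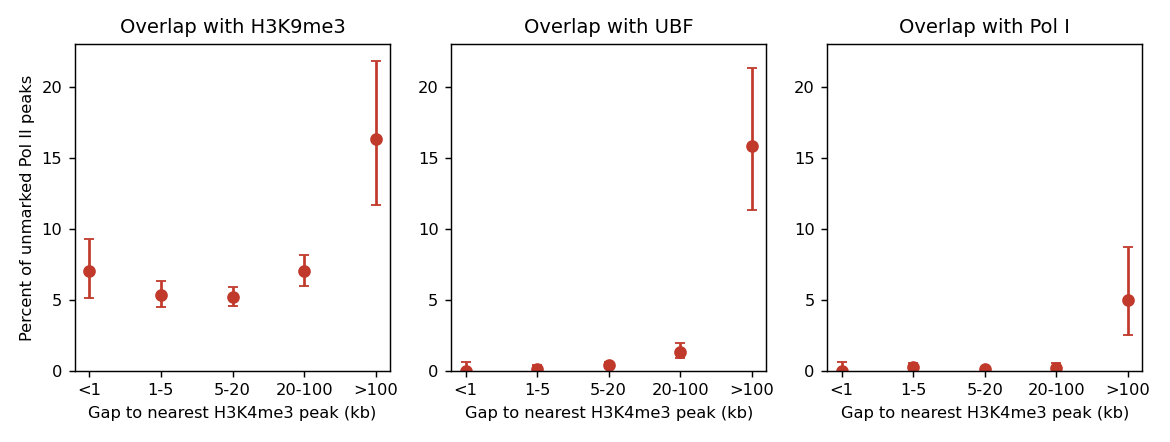
Percent of unmarked Pol II peaks that overlap H3K9me3, UBF or Pol I, by the gap to the nearest H3K4me3 peak (kb), with 95% binomial intervals. All 3 shares are highest in the 221 peaks over 100 kb away, at 16.3%, 15.8% and 4.98%.

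Pol I was met by 28 unmarked Pol II peaks (0.283%, 0.188 to 0.409), against 0.862% (0.503 to 1.38) of peaks with acetylation only, 3.98% (3.70 to 4.27) of peaks with H3K4me3 and 2.57% of all Pol II peaks. In the narrowest width group it was met by 21 unmarked peaks (0.505%, 0.313 to 0.770), against 1.34% (0.943 to 1.84) of peaks with H3K4me3, and in the widest by 1 of 756 (0.132%, 0.00335 to 0.735), against 6.51% (5.92 to 7.14). At least 50% of the Pol II peak was covered by Pol I in 9 of the 28, or 0.091% of the unmarked peaks, and in the wider 50% of the Pol II list Pol I was met by 0.124% of them. Pol I peaks are short, with a median of 144 bp where they met an unmarked Pol II peak and 230 bp in the whole list. The 3 widest unmarked peaks with Pol I were on chromosome 5 from 125862497 to 125863564 (1067 bp wide), on chromosome 2 from 32559779 to 32560766 (987 bp) and the peak on chromosome 9 named with UBF above. The first and second stood 1701 and 2835 bp from H3K4me3 and met no UBF.

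Where Pol I met an unmarked Pol II peak, UBF was mostly there too. It overlapped 20 of the 28 (71.4%, 51.3 to 86.8), against 155 of 731 peaks with Pol I and H3K4me3 (21.2%, 18.3 to 24.3). In the other direction 20 of 86 unmarked peaks with UBF had Pol I (23.3%, 14.8 to 33.6), against 8.20% (7.00 to 9.53) of those with UBF and H3K4me3. Among peaks with acetylation only, UBF overlapped 5 of 17 with Pol I (29.4%, 10.3 to 56.0). Pol I overlapped 5 of 18 with UBF (27.8%, 9.69 to 53.5). Both intervals overlap those of the unmarked peaks. The unmarked peaks with UBF met H3K9me3 as often as Pol I, at 20 of 86 (23.3%, 14.8 to 33.6), against 6.05% of the class. Of the 28 with Pol I, 5 met H3K9me3 (17.9%, 6.06 to 36.9). Among peaks with UBF, H3K9me3 overlapped 15 of 18 with acetylation only and 30.1% (28.0 to 32.2) of those with H3K4me3. The 20 unmarked peaks with both UBF and Pol I lay on 12 chromosomes. They were 229 to 766 bp wide with a median of 394 bp, and none had another unmarked peak within 5 kb. Of these, 11 lay over 100 kb from H3K4me3 and 4 met H3K9me3. Examples picked after the values were seen are peaks on chromosome 7 from 84177302 to 84177612 and from 85058500 to 85058806, which stood 1182360 and 868327 bp from H3K4me3.

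Seen from the other lists, peaks without an active mark seldom held a Pol II peak of any class. Of the 1829 UBF peaks without an active mark, 85 (4.65%, 3.73 to 5.71) held a Pol II peak, against 1787 of 1875 (95.3%, 94.2 to 96.2) of those with one. For Pol I these shares were 32 of 364 (8.79%, 6.09 to 12.2) and 790 of 1045 (75.6%, 72.9 to 78.2). For H3K9me3 they were 465 of 17976 (2.59%, 2.36 to 2.83) and 3087 of 5819 (53.1%, 51.8 to 54.3). The peaks without an active mark were the narrower ones in each list, with median widths of 874 against 1142 bp for UBF, 126 against 262 bp for Pol I and 1020 against 1168 bp for H3K9me3. Of the 3 lists that the rule did not use, H3K9me3, UBF and Pol I, none was met by 9221 of the unmarked Pol II peaks (93.2%, 92.7 to 93.7), against 81.9% (80.1 to 83.5) of peaks with acetylation only, 73.9% (73.3 to 74.6) of peaks with H3K4me3 and 80.8% of all Pol II peaks. Among the unmarked peaks 577 overlapped H3K9me3 alone, 50 UBF alone and 7 Pol I alone.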

How the data were processed

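ChIP-seq peak lists of 7 NIH3T3 samples were used, grouped by the antibody in each sample's title. The authors deposited 3 columns per list (chromosome, start, end), with no score or count. CASAVA 1.8.2, BWA and Picard and the build mm9 come from the submitters' processing notes. The sources used here do not give how peaks were called, filtered or pooled over replicates (the design names 2 for UBF). Carriage returns were read as line ends, and the Pol I list has no header. Coordinates are printed as deposited.

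With Python 3.11.15, numpy 2.4.6 and scipy 1.17.1, Pol II peaks were classed by overlap of at least 1 bp, gaps were measured between peak edges, and chains joined peaks at gaps of at most 5 kb. Contigs are named differently in the UBF list and could not be matched there. The overlap, gap and chain code was tested on simulated peaks. Regions named are the 5 widest peaks, chains with most peaks and fullest windows, and the 3 widest peaks with each other list, farthest from H3K4me3 and at either edge of the rule. Members and lists were chosen with earlier results of these data known.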

Additional observations from a re-analysis of the deposited data

How the results depend on the processing

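The 8 results were recomputed under 42 alternatives, of which 26 stayed within the interval of the value (within 1.5 times for counts) and 16 did not. In the wider 50% of the Pol II list there were 2421 unmarked peaks, with a median width of 890 bp, a median gap to H3K4me3 of 7401 bp, 55.3% with another within 5 kb, at most 18 in a window, and 0.372% and 0.124% with UBF and Pol I. The fall in number and the wider median follow from leaving out narrow peaks. With peaks unmarked only where no active mark lay within 1000 bp, the median gap was 10469 bp and 60.5% had a neighbour within 5 kb, and with less than 50% coverage allowed, 63.3%. Centre to centre the median gap was 10913 bp. Gaps of 2 and 10 kb gave 49.4% and 70.3% with a neighbour, by their construction. With at least 50% of the Pol II peak covered, 5.43% met H3K9me3 and 0.091% Pol I, whose peaks are too short to cover most Pol II peaks. With centres within 1000 bp 5.52% met H3K9me3. Leaving out contigs and chromosome Y moved none of the 8. No paired analysis was possible because each list is 1 sample. Without scores, peaks could not be filtered by strength, so depth limits are unknown.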

Other observations

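A few H3K9me3 peaks held several unmarked Pol II peaks. Of the 519 H3K9me3 peaks that met an unmarked peak, 452 met 1, 55 met 2, 10 met 3 and 2 met 4. Those with 4 lay on chromosome 12 from 114009433 to 114023171 (13738 bp wide) and on chromosome 16 from 17801794 to 17805606 (3812 bp wide). One of those with 3, on chromosome 5 from 126005277 to 126007894, lay at the end of the chain of 25 unmarked peaks. The H3K9me3 peaks that met unmarked Pol II were wider than the list as a whole, with medians of 1351 and 1050 bp, and a wide peak meets more Pol II peaks by its size. Between chromosomes the share of unmarked peaks with H3K9me3 ran from 3.63% on chromosome 14 (1.67 to 6.78) to 15.2% on chromosome 18 (10.1 to 21.5). Over all Pol II peaks of these chromosomes the shares were 8.80% and 12.8%, so that on chromosome 18 the interval of the unmarked peaks holds the share of all peaks. Chromosome 18 was also where unmarked peaks lay farthest from H3K4me3, at a median of 14163 bp.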
